A study of Mus musculus with 4 samples.

Results

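The genes described here make, recycle and interconvert nucleotides or supply the one-carbon units that their rings need. They were 38 genes of purine, pyrimidine, deoxynucleotide, salvage and folate steps, taken by gene symbol. Of these, 33 genes had at least 1 probe set that the platform annotation gives to that gene alone, which made 70 probe sets of 22690 on the array and 33 of 12393 genes. The other 5 genes (Pfas, Atic, Impdh2, Gmps and Mthfd1l) were not analysed here. Affymetrix arrays measured expression in 2 NFATc1-deficient and 2 wild-type mouse cultures grown for 3 days in M-CSF plus RANKL, which together turn precursors into osteoclasts. All mice were C57BL/6 and carried floxed Nfatc1 alleles (NFATc1 fl/fl); the deficient mice also carried MxCre, a recombinase that interferon signals switch on and that poly I:C was used to induce, and the wild-type mice did not carry it. The sources used here state neither the age of the mice nor whether wild-type mice received poly I:C. MxCre is not restricted to osteoclasts, and each array stood for pooled animals (3 mice in replicate 1, 4 mice in replicate 2), whose precursors had been sorted from marrow as c-Kit and c-Fms positive cells without CD11b, CD3e or B220 and plated at 20000 per well.

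NFATc1 is the transcription factor that drives precursors into osteoclasts downstream of RANK, and cells leave the division cycle as they mature. Dividing cells need purines and pyrimidines for RNA and deoxynucleotides for DNA. Purine rings are built stepwise on ribose phosphate, with folate carrying one-carbon units taken mostly from serine, and pyrimidine rings are built on CAD, a protein with several enzyme activities. Ribonucleotide reductase then turns ribonucleotides into deoxynucleotides, and salvage enzymes recover bases and nucleosides that would otherwise be lost.

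Signals were MAS5 values in linear units, and changes are differences of log2(signal + 23.3), NFATc1-deficient minus wild-type, where 23.3 keeps noise in dim signals from dominating. The added constant makes the changes of dim genes come out too small. A gene was counted as risen or fallen at an adjusted p under 0.05 (limma, Benjamini-Hochberg over 13577 probe sets), with the tested probe set of highest mean signal standing for the gene. Nfatc1 itself had signals of 3018.2 and 4097.9 in NFATc1-deficient cultures, against 5433.6 and 6146.7 in wild-type cultures, a change of -0.71 (SE 0.15, adjusted p = 0.0104, but 0.0871 without NFATc1-deficient replicate 1 and 0.0613 without the variance trend). All 7 osteoclast markers with a probe set were lower in NFATc1-deficient cultures, to very different degrees. The enzymes Ctsk (-0.94) and Acp5 (-1.30) still had signals of 4074.3 or more there. Itgb3, an integrin subunit of osteoclasts, had 4.6 and 10.2 in NFATc1-deficient cultures, against 610.6 and 495.1 in wild-type cultures. Calcr, the calcitonin receptor, had 17.0 and 41.6, against 761.2 and 717.5 in wild-type cultures, and the receptor Oscar had 28.9 and 118.4, against 1893.6 and 1571.8 in wild-type cultures. Itgb3, Calcr and, in replicate 1, Oscar were thus at or near the added constant in NFATc1-deficient cultures. The call for Ctsk was lost without NFATc1-deficient replicate 1 (adjusted p = 0.0719). Median signals of the arrays were 114 and 125 in NFATc1-deficient cultures and 130 and 112 in wild-type cultures.

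Nucleotide and one-carbon genes were mostly higher in NFATc1-deficient cultures, with Tk1, Dck, Rrm2, Dtymk and Dut among the larger rises. Adssl1 fell (-0.68, adjusted p = 0.00282), and Mthfd2 fell by less and close to the threshold (-0.35, adjusted p = 0.0453). Of the 32 genes that passed the filter on low signals, 15 rose, 2 fell and 15 did not pass the test. As shares, 46.9% of the tested genes rose and 6.25% fell, beside 12.9% and 11.9% of all 7798 genes tested (24.8% in either direction). Their median change was 0.44, beside 0.03 over all genes tested. Both NFATc1-deficient signals lay above both wild-type signals for 23 of the 32 genes and below them for 3, where 34.3% and 29.7% of all genes did so. Counted by probe set, 29 of 65 tested probe sets rose and 2 fell, beside 12.8% and 11.4% of all probe sets (24.2% in either direction). Leaving out 1 array at a time gave 11 to 16 genes that rose, the lowest without NFATc1-deficient replicate 1. In those 4 fits 12 of the 17 called genes kept the call each time, and the other 5, Ppat, Paics, Dhodh, Shmt2 and Mthfd2, lost it in at least 1. Because the samples were bulk cultures, more cells of a type and more RNA per cell cannot be told apart.

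**Figure D1:**
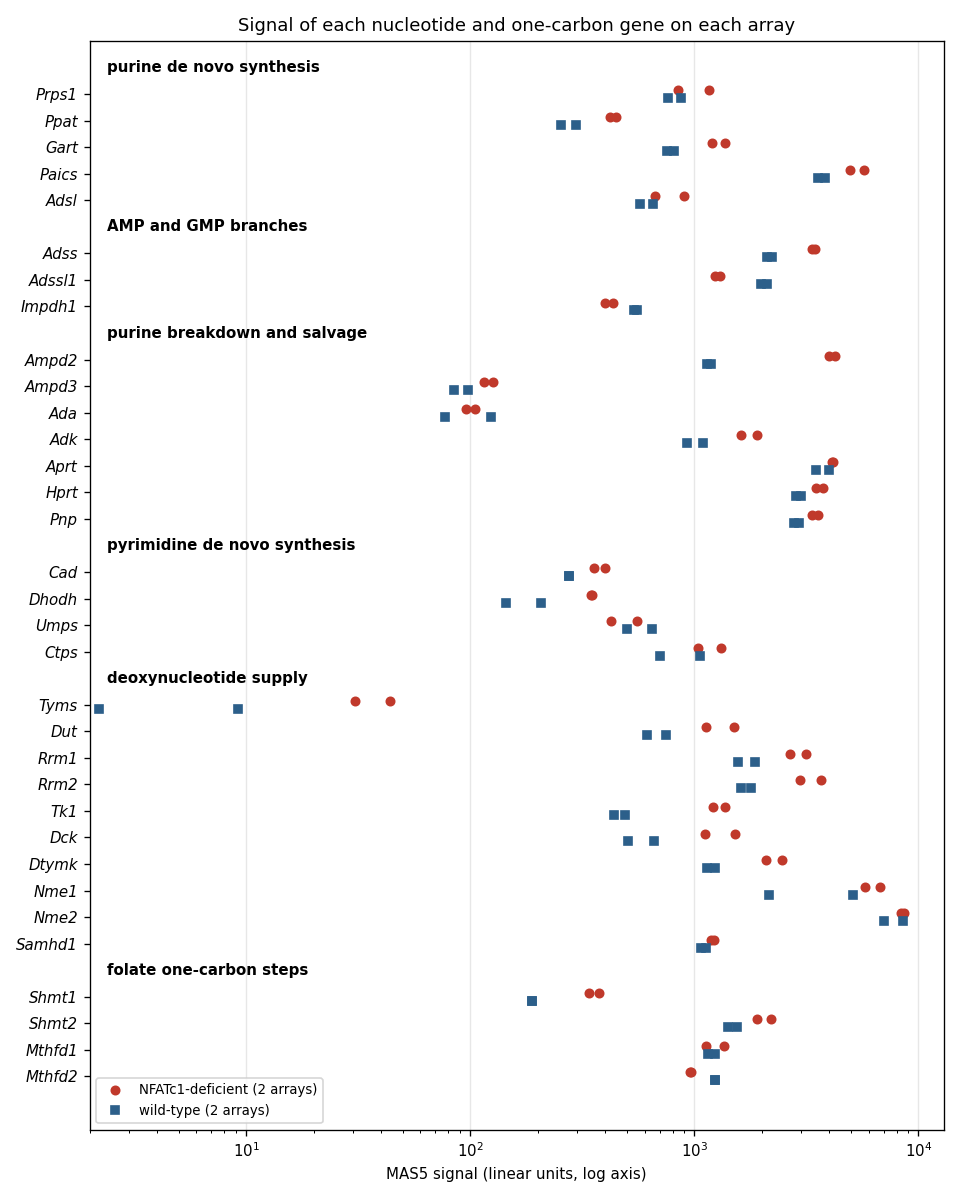
MAS5 signal (horizontal log axis) of each of the 33 measured genes, grouped by step, with red circles for the 2 NFATc1-deficient arrays above blue squares for the 2 wild-type arrays. For 6 of the tested genes (Prps1, Ada, Umps, Ctps, Nme2 and Mthfd1) the signals of the genotypes overlap; Tyms lies below the filter.

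The early steps of purine synthesis rose in part. Of 5 tested genes, Gart, Ppat and Paics rose, and Prps1 and Adsl did not pass. Gart, a protein that carries 3 of the early reactions, had signals of 1378.2 and 1202.4 in NFATc1-deficient cultures, against 759.3 and 809.8 in wild-type cultures. The groups did not overlap, and the change was 0.70 (SE 0.12, adjusted p = 0.00457), with 0.88 and 0.46 at its other probe sets, which also rose. Ppat, the amidotransferase that commits ribose phosphate to purines, had 419.5 and 448.2 in NFATc1-deficient cultures, against 297.5 and 254.3 in wild-type cultures. That gave a change of 0.61 (SE 0.16, adjusted p = 0.0237), and its other probe set rose by 0.75 (adjusted p = 0.0179). Ppat lost the call when either NFATc1-deficient array (adjusted p = 0.0745 without replicate 1 and 0.0954 without replicate 2) or wild-type replicate 2 (0.0812) was left out, and without a filter (0.0508). Paics, which joins a carboxylase and a synthetase in 1 protein, had 5734.0 and 4933.0 in NFATc1-deficient cultures, against 3817.5 and 3576.8 in wild-type cultures, with no overlap. Its change was 0.52 (SE 0.11, adjusted p = 0.0116), and 0.64 and 0.75 at its other probe sets, which also rose. Without NFATc1-deficient replicate 1 its adjusted p was 0.119, with arrays scaled to the same median it was 0.0913, and without the variance trend 0.0655.

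Prps1, which makes the activated ribose phosphate, had 1168.5 and 850.1 in NFATc1-deficient cultures, against 870.7 and 765.0 in wild-type cultures, and the groups overlapped (change 0.28, SE 0.16, adjusted p = 0.252). Adsl, the lyase that acts both late in the chain and on the way to AMP, had 898.2 and 669.8, against 657.3 and 572.3 in wild-type cultures. Its change was 0.33 (SE 0.16, adjusted p = 0.183), and its lower NFATc1-deficient signal lay just above the higher wild-type signal. Both genes passed in the fit without NFATc1-deficient replicate 2 (adjusted p of 0.0425 for Prps1 and 0.0439 for Adsl).

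Paics and Ppat lie head to head on chromosome 5, and both rose. In RefSeq (GRCm38.p6) Paics runs from 76951302 to 76967509 on the plus strand and Ppat from 76913249 to 76951578 on the minus strand, so their 5′ ends overlap by 277 bases. Their promoter windows, 250 bases before to 50 bases after the start of a transcript, are shown because these neighbours moved the same way and carry different motifs. Capitals mark CACGTG (E-box, bound by MYC among others), TTTCCCGC, TTTGGCGC or TTTCGCGC (E2F type), CCAAT, and TGGAAA (a core of NFAT sites), each searched on both strands. The Paics window is chr5:76951052-76951351, plus strand, and the Ppat window is chr5:76951529-76951828, minus strand.
Paics: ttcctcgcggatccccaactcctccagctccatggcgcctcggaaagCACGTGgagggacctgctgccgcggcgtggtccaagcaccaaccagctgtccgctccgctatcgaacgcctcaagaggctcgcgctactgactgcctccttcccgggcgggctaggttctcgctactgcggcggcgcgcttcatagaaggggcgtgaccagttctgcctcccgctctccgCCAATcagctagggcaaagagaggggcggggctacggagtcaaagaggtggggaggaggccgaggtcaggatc
Ppat: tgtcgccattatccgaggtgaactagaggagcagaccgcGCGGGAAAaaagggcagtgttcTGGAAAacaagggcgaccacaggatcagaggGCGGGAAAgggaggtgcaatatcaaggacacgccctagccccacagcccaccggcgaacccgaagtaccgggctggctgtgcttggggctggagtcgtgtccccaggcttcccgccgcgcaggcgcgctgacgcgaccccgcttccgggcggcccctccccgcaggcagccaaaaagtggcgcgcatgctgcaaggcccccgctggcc
The Paics window holds CACGTG at position -203 and CCAAT at -23, counted from the start of the transcript. The Ppat window holds GCGGGAAA, the reverse complement of TTTCCCGC, at positions -211 and -158, and TGGAAA at -189.

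Those motifs were counted over all promoter windows as background. CACGTG was in a window of 5 of the 32 genes with a window (15.6%), beside 8.09% of all 27025 genes with windows. Paics and Dtymk rose among its carriers, Ampd3 and Nme1 did not pass, and Tyms was not tested. An E2F type word was in 1 of 32, Ppat, beside 2.12% of all genes. CCAAT was in 13 of 32 (40.6%, beside 41.1%) and TGGAAA in 11 of 32 (34.4%, beside 23.9%). TGGAAA was found for 6 of the 14 risen genes with a window and for 5 of the 15 that did not pass. Per window of 300 bases the shares over all 32851 windows were 7.15% for CACGTG, 1.84% for the E2F words, 37.4% for CCAAT and 21.4% for TGGAAA. By base composition the members' windows had a median of 61.0% G and C and 21 CG pairs. That took 1 window a gene, the one of lowest coordinate. All 32851 windows, some genes having several, had medians of 52.7% and 7. These windows are not limited to genes on the array, so the medians are of unlike sets. A match of letters is no evidence of binding, and a gene with several windows has more chances of a match.

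The step from IMP to AMP was split between its isozymes, Adss up and Adssl1 down. Adss, the adenylosuccinate synthetase that most tissues use, had 3471.3 and 3339.5 in NFATc1-deficient cultures, against 2115.8 and 2228.2 in wild-type cultures. Adssl1, the isozyme known from muscle, had 1238.1 and 1304.6 in NFATc1-deficient cultures, against 2108.0 and 1992.6 in wild-type cultures. Neither gene's groups overlapped, and the arrays of each genotype lay close together. The change was 0.64 for Adss (SE 0.10, adjusted p = 0.00292) and -0.68 for Adssl1 (SE 0.11, adjusted p = 0.00282), and both kept the call in all 13 alternative fits. On the ratio scale Adss was 1.57-fold higher and Adssl1 1.61-fold lower. Impdh1, an isozyme of the dehydrogenase that opens the way to GMP, had 399.7 and 435.1 in NFATc1-deficient cultures, against 536.3 and 556.9 in wild-type cultures. Its NFATc1-deficient signals lay below the wild-type ones, but it did not pass (change -0.37, SE 0.14, adjusted p = 0.0833).

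Promoter windows of these isozymes are shown because they moved in opposite directions, with CG pairs in capitals. The Adss window is chr1:177796460-177796759, minus strand, and the Adssl1 window chr12:112619797-112620096, plus strand (RefSeq, GRCm38.p6).
Adss: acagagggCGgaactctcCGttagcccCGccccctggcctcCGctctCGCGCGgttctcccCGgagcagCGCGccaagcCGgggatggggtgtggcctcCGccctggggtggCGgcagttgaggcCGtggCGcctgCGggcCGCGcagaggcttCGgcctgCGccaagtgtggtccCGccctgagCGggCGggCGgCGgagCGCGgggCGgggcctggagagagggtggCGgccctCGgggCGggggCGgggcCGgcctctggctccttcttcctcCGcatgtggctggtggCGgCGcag
Adssl1: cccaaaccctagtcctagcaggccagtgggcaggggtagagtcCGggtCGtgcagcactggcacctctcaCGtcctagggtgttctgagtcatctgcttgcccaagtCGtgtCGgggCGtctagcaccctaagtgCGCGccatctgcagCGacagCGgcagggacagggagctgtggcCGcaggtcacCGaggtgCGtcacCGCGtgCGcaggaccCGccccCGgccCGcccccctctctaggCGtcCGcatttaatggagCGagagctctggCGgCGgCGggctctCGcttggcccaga
Adss has 36 CG pairs and 77.7% G and C, and Adssl1 has 26 CG pairs and 67.7%. Neither window holds any of the CACGTG, E2F type, CCAAT or TGGAAA words.

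Purine breakdown and salvage held the largest rise of the set, at a single probe set. Of 7 tested genes, Ampd2 and Adk rose and 5 did not pass. Ampd2, the AMP deaminase that returns AMP to IMP, had 4235.7 and 3992.3 in NFATc1-deficient cultures, against 1135.8 and 1184.2 in wild-type cultures. That is a 3.55-fold higher mean signal, with a change of 1.81 (SE 0.10, adjusted p = 6.92e-05). The other Ampd2 probe set had 351.3 and 337.1 in NFATc1-deficient cultures, against 176.0 and 269.1 in wild-type cultures, a change of 0.61 (SE 0.21) that did not pass (adjusted p = 0.0685). The probe set with the larger change carries the suffix _x_at, which Affymetrix gives where some probes may also bind other transcripts, so the size of the Ampd2 rise is uncertain. Adk, which phosphorylates adenosine back to AMP, had 1911.9 and 1610.9 in NFATc1-deficient cultures, against 1093.6 and 926.4 in wild-type cultures. It rose by 0.79 (SE 0.13, adjusted p = 0.00405) at this probe set, also of the _x_at type, and by 0.82 at its other tested probe set.

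The salvage enzymes Hprt and Pnp were higher on both NFATc1-deficient arrays without passing. Hprt, which recovers hypoxanthine and guanine, had 3759.8 and 3512.7 in NFATc1-deficient cultures, against 2989.0 and 2859.2 in wild-type cultures (change 0.31, SE 0.10, adjusted p = 0.0572). It passed with quantile normalization (adjusted p = 0.0353) and with the stricter filter (0.0439). Pnp, which splits purine nucleosides, had 3575.3 and 3359.2, against 2933.4 and 2786.1 in wild-type cultures (change 0.28, SE 0.10, adjusted p = 0.0850). Aprt, the adenine counterpart of Hprt, had 4141.3 and 4170.4, against 3480.8 and 3992.0 in wild-type cultures (change 0.16, SE 0.11, adjusted p = 0.346). The deaminases Ampd3 and Ada were dim. Ampd3 had 126.9 and 115.8 in NFATc1-deficient cultures, against 97.8 and 84.6 in wild-type cultures (change 0.34, SE 0.24, adjusted p = 0.347). Ada had 96.1 and 105.3, within the span of 123.4 and 77.6 in wild-type cultures (change 0.03, SE 0.27).

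**Figure D2:**
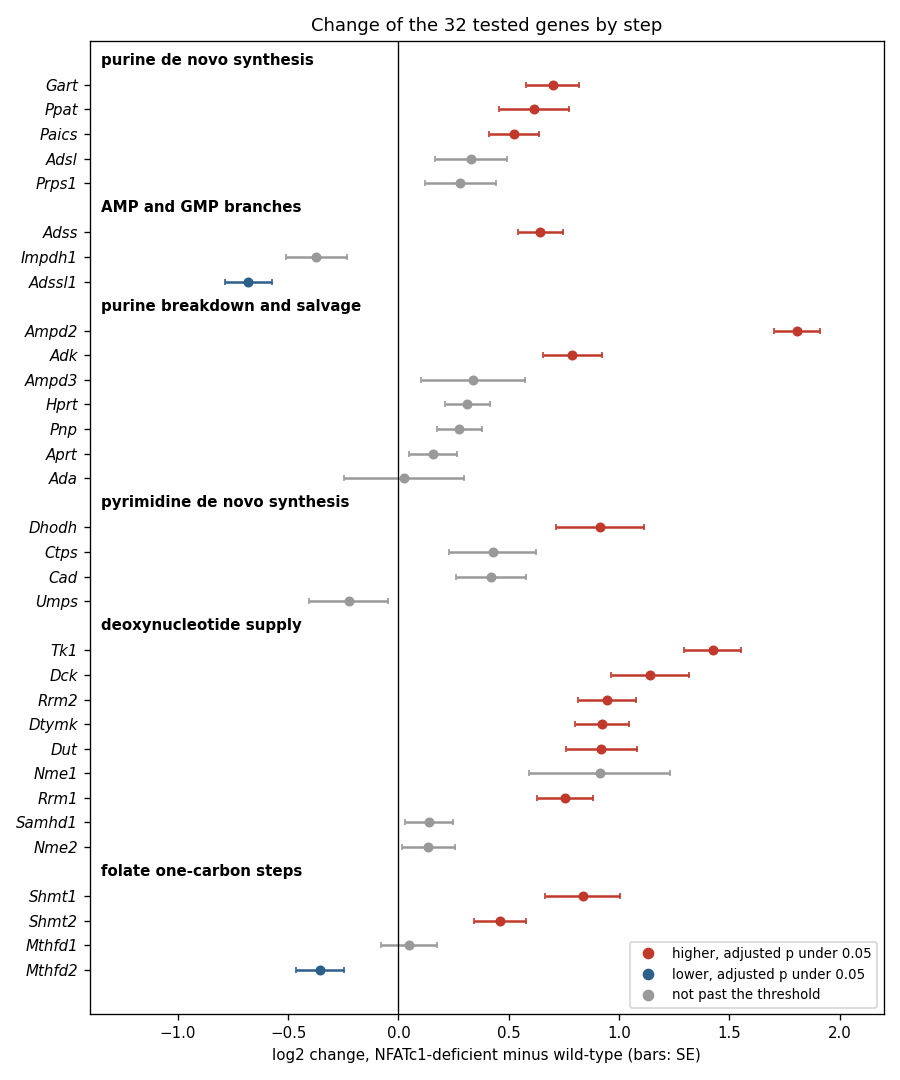
Change of each of the 32 tested genes (horizontal axis, log2 scale, NFATc1-deficient minus wild-type, bars 1 SE), grouped by step. Red points rose, blue points fell and grey points did not pass; the range runs from -0.68 for Adssl1 to 1.81 for Ampd2, with most points right of 0.

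Pyrimidine synthesis had 1 gene of 4 that rose, Dhodh, and its probe sets disagreed. Dhodh, the mitochondrial dehydrogenase that feeds electrons to the respiratory chain, had 349.0 and 347.4 in NFATc1-deficient cultures, against 207.3 and 145.2 in wild-type cultures. The change was 0.91 (SE 0.20, adjusted p = 0.0121, but 0.0534 without NFATc1-deficient replicate 1). Its other probe set had 239.5 and 239.1 in NFATc1-deficient cultures, against 221.8 and 230.4 in wild-type cultures, and did not pass (change 0.07, SE 0.17). With the mean of both probe sets Dhodh had a change of 0.49 and did not pass (adjusted p = 0.0529). Cad, the protein that starts the pathway, showed the reverse pattern of calls. Its brighter probe set had 355.3 and 400.3 in NFATc1-deficient cultures, against 276.0 and 276.6 in wild-type cultures, and did not pass (change 0.42, SE 0.16, adjusted p = 0.0885). The other rose by 0.60 (SE 0.17, unadjusted p = 0.00670), with 387.6 and 324.6 against 222.5 and 228.1 in wild-type cultures, and the mean of both passed with 0.51 (adjusted p = 0.0272). All 4 NFATc1-deficient signals of Cad therefore lay above the wild-type signals of the same probe set.

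Umps and Ctps overlapped between genotypes. Umps, which completes UMP, had 423.2 and 553.9 in NFATc1-deficient cultures, against 648.2 and 501.4 in wild-type cultures (change -0.23, SE 0.18, adjusted p = 0.410). Ctps, which converts UTP to CTP, had 1318.9 and 1039.8, against 1066.5 and 700.2 in wild-type cultures (change 0.43, SE 0.20, adjusted p = 0.156). It passed without wild-type replicate 1, where the change was 0.72 (adjusted p = 0.00402).

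Deoxynucleotide genes rose most often, 6 of 9 tested, with a median change of 0.92. Tk1, the cytosolic thymidine kinase that is made in S phase, had 1370.2 and 1208.9 in NFATc1-deficient cultures, against 491.2 and 439.8 in wild-type cultures. Its mean signal was 2.77-fold higher, with a change of 1.42 (SE 0.13, adjusted p = 0.000283), and the genotypes were far apart. Dck, which phosphorylates deoxycytidine, had 1518.5 and 1114.1 in NFATc1-deficient cultures, against 658.5 and 506.4 in wild-type cultures. It rose by 1.14 (SE 0.18, adjusted p = 0.00285) and by 1.04 at another probe set, while 1 more, with a change of 0.45, did not pass. Dtymk, the kinase after Tk1 on the way to dTTP, had 2471.6 and 2083.3 in NFATc1-deficient cultures, against 1240.9 and 1134.9 in wild-type cultures. It rose at all 3 of its probe sets, by 0.92 (SE 0.12, adjusted p = 0.00137), 0.58 and 0.94.

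Both subunits of ribonucleotide reductase, the enzyme that makes deoxynucleotides, rose. Rrm1, the large subunit, had 3145.8 and 2687.7 in NFATc1-deficient cultures, against 1867.9 and 1570.5 in wild-type cultures (change 0.76, SE 0.13, adjusted p = 0.00417), and 0.93 at its other probe set, which rose too. Rrm2, the small subunit of dividing cells, had 3685.9 and 2960.4 in NFATc1-deficient cultures, against 1794.1 and 1620.2 in wild-type cultures. Its change was 0.94 (SE 0.13, adjusted p = 0.00160) at this _x_at probe set, 0.51 at another that rose, and 0.43 at one that did not pass. Dut, which removes dUTP and yields the substrate of thymidylate synthase, had 1507.5 and 1132.7 in NFATc1-deficient cultures, against 746.6 and 618.4 in wild-type cultures. It rose by 0.92 (SE 0.16, adjusted p = 0.00467), and its dimmer probe set had 0.79 and did not pass. For Tk1, Dck, Dtymk, Rrm1, Rrm2 and Dut the genotypes did not overlap, and each kept the call in all 13 alternative fits.

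Windows of the thymidine kinase and the kinase that follows it are shown because they act in sequence and rose together. Capitals mark the same words as for Paics and Ppat. The Tk1 window is chr11:117825965-117826264, minus strand, and the Dtymk window chr1:93801885-93802184, minus strand (RefSeq, GRCm38.p6).
Tk1: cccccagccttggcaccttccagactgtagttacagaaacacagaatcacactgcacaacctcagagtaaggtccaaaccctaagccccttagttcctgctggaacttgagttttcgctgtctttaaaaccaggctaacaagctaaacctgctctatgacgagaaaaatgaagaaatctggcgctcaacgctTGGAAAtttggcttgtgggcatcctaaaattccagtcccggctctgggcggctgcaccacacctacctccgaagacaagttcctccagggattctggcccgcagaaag
Dtymk: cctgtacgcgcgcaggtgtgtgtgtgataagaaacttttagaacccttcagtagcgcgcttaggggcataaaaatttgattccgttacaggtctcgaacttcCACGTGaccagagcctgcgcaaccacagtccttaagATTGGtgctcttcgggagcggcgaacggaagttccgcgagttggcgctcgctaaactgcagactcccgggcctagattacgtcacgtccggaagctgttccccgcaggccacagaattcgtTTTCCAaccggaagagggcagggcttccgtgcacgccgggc
Tk1 holds TGGAAA at position -58. Dtymk holds CACGTG at -148, ATTGG, the reverse complement of CCAAT, at -112, and TTTCCA, the reverse complement of TGGAAA, at position 10.

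Tyms, the thymidylate synthase between Dut and Dtymk, was below the filter at all 3 of its probe sets and was not tested. Its brightest probe set had 30.7 and 44.0 in NFATc1-deficient cultures, against 9.2 and 2.2 in wild-type cultures. The other probe sets ran the other way or overlapped, with 14.5 and 10.1 against 35.1 and 20.3 in wild-type cultures, and 3.0 and 4.9 against 17.8 and 3.1 in wild-type cultures. These values lie near or below the added 23.3, and no detection calls were at hand, so no fold is drawn from them. Nme1 and Nme2 make nucleoside diphosphate kinases that load the last phosphate, and neither passed. Nme1 had 6769.5 and 5797.4 in NFATc1-deficient cultures, against 2153.7 and 5108.7 in wild-type cultures, so wild-type replicate 1 lay far below the other arrays. The change was 0.91 (SE 0.32, adjusted p = 0.0702) at this _x_at probe set, made up of 1.64 in replicate 1 and 0.18 in replicate 2. Without wild-type replicate 2 the change was 1.53, and without wild-type replicate 1 it was 0.29. With all arrays, the call depended on the scaling. Nme1 passed with arrays scaled to the same median (0.92, adjusted p = 0.00119) and with quantile normalization (0.99, adjusted p = 0.0477). The other Nme1 probe set had a change of 0.31 and did not pass. Nme2 had 8628.6 and 8397.7 in NFATc1-deficient cultures, against 7057.7 and 8504.4 in wild-type cultures (change 0.14, SE 0.12, adjusted p = 0.461). These genes are neighbours on chromosome 11, 2668 bases apart, and are close relatives in sequence, so probes may read both. Samhd1, which breaks deoxynucleotides down, had 1192.5 and 1228.4, against 1127.8 and 1068.2 in wild-type cultures (change 0.14, SE 0.11, adjusted p = 0.409). Its 4 probe sets did not pass (unadjusted p of 0.101 or more), and their changes ran from -0.13 to 0.66.

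Folate one-carbon genes moved in both directions. Both serine hydroxymethyltransferases, which pass a carbon of serine to folate, rose, while Mthfd2 fell. Shmt1, the cytosolic form, had 337.4 and 374.5 in NFATc1-deficient cultures, against 189.1 and 188.9 in wild-type cultures, with no overlap. The change was 0.84 (SE 0.17, adjusted p = 0.00868). Of its other probe sets 1 rose (1.21) and 2 did not pass (0.71 and 0.32). Shmt2, the mitochondrial form, had 2208.3 and 1904.3 in NFATc1-deficient cultures, against 1556.9 and 1413.2 in wild-type cultures. Its change was 0.46 (SE 0.12, adjusted p = 0.0234) at this _x_at probe set. Another Shmt2 probe set rose by 0.52, but 2 dim ones, with -0.47 and 0.15, did not pass. With the mean of all its probe sets Shmt2 had 0.17 (adjusted p = 0.435), and it lost the call without NFATc1-deficient replicate 1 (0.143) or wild-type replicate 2 (0.0683). The call was also lost with arrays scaled to the same median (adjusted p = 0.0838), without the variance trend (0.0907) and without a filter (0.0510).

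Mthfd2, the mitochondrial dehydrogenase and cyclohydrolase that follows Shmt2, had 960.6 and 964.2 in NFATc1-deficient cultures, against 1233.9 and 1239.3 in wild-type cultures. Replicates lay close together and the genotypes apart, but the fall was small (change -0.35, SE 0.11, adjusted p = 0.0453). It lost the call when any array was left out (adjusted p of 0.115 to 0.145) and with arrays scaled to the same median (0.223), without the variance trend (0.114), without a filter (0.0616) and with the mean of both probe sets (0.0523), and its other probe set had -0.27 and did not pass. Mthfd1, the cytosolic enzyme with several folate activities, had 1361.0 and 1129.1 in NFATc1-deficient cultures, against 1241.2 and 1155.9 in wild-type cultures. The groups overlapped, and it did not pass (change 0.05, SE 0.13, adjusted p = 0.821). A dimmer Mthfd1 probe set of the _x_at type had 621.0 and 181.7 in NFATc1-deficient cultures, against 119.7 and 111.6 in wild-type cultures, so its change of 1.39, which just missed the threshold, rests largely on NFATc1-deficient replicate 1.

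**Figure D3:**
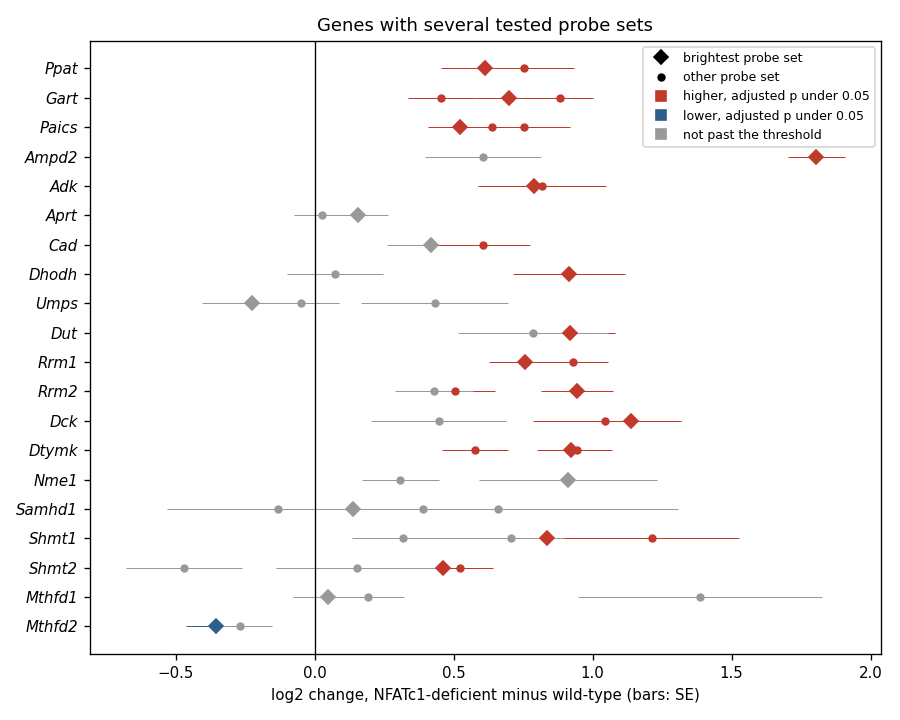
Changes (log2 scale, NFATc1-deficient minus wild-type, bars 1 SE) at every tested probe set of the 20 genes with more than 1. Diamonds are the probe sets used for the counts, circles the others, red rose, blue fell, grey did not pass; Mthfd1, Ampd2 and Shmt1 show wide gaps between probe sets that share 1 sign.

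Among the 20 genes with more than 1 tested probe set, 11 had the same call at each of them and 17 the same sign. No gene rose at one probe set and fell at another. The genes with mixed signs were Umps, Samhd1 and Shmt2. Taken separately for replicate 1 and for replicate 2, the change was above 0 both times for 25 of the 32 tested genes. It was below 0 both times for 3. The 15 genes that rose were among the 25, which calls from the same arrays make nearly certain. The share of all tested genes that did so was not counted, and the replicate numbers were not shown to pair the cultures.

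Other genes of these pathways rose and fell in small numbers. Of 65 listed genes, 46 had a probe set and 35 passed the filter; 3 rose, 5 fell and 27 did not pass, with a median change of 0.04. As shares, 8.57% rose and 14.3% fell, beside 12.9% and 11.9% of all genes, and the difference from the 32 genes above was not tested. The adenylate kinases fell. Ak1, which balances AMP, ADP and ATP in the cytosol, had 60.1 and 111.4 in NFATc1-deficient cultures, against 311.4 and 339.9 in wild-type cultures (change -1.72, SE 0.26, adjusted p = 0.00234). Ak3, the mitochondrial kinase that uses GTP, had 710.4 and 632.3, against 1713.6 and 1530.3 in wild-type cultures (change -1.24, SE 0.12, adjusted p = 0.000421), and its other 2 probe sets fell too. The nucleoside transporter Slc29a1 had 551.8 and 522.8 in NFATc1-deficient cultures, against 797.7 and 987.1 in wild-type cultures (change -0.70, SE 0.14, adjusted p = 0.00865).

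Uridine phosphorylase Upp1 (-0.86, adjusted p = 0.0217) and the formyl-folate dehydrogenase Aldh1l1 (-1.04, adjusted p = 0.0169) also fell. Psat1, the aminotransferase of serine synthesis, had 2565.7 and 2312.9 in NFATc1-deficient cultures, against 1474.1 and 1341.1 in wild-type cultures. It rose by 0.78 (SE 0.11, adjusted p = 0.00192), and by 1.03 at its other probe set. The enzymes before and after it, named after their values were seen, did not pass, with -0.48 for Phgdh and -0.29 for Psph. Uck2, the uridine and cytidine kinase, rose by 0.60 (adjusted p = 0.0135), although another probe set had -0.11, and the nucleotidase Nt5c2 rose by 0.58 (adjusted p = 0.0157), with 0.22 at another that did not pass. Uck2 (adjusted p = 0.0595), Nt5c2 (0.0647), Upp1 (0.0632) and Aldh1l1 (0.105) lost their calls without NFATc1-deficient replicate 1. Upp1 also lost the call without NFATc1-deficient replicate 2 (0.0871) or wild-type replicate 1 (0.0520). The mean of all tested probe sets ended the calls for Uck2 (0.25, adjusted p = 0.297) and Nt5c2 (0.40, adjusted p = 0.0612), and testing without a filter those for Upp1 (0.0735) and Aldh1l1 (0.0647). Phgdh passed without wild-type replicate 2, with a change of -0.82 (adjusted p = 0.00191), but the mean of its 4 probe sets had -0.06.

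**Figure D4:**
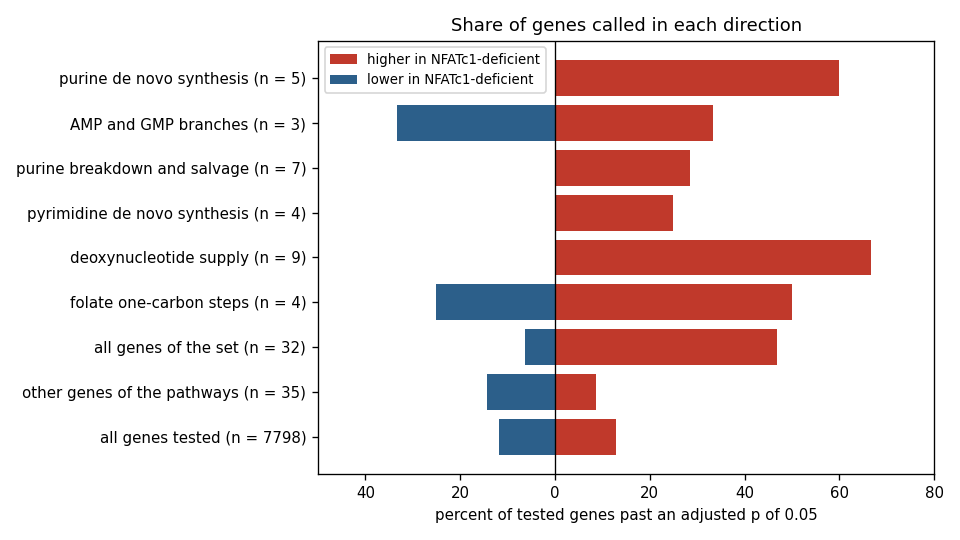
Share of tested genes that rose (red, to the right) or fell (blue, to the left) in NFATc1-deficient cultures, in percent, by step, for all genes of the set, for other genes of the pathways and for all genes tested. The deoxynucleotide step has the longest red bar at 66.7% of 9 genes, and the bar for all genes tested is 12.9%.

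Cell cycle genes were higher in NFATc1-deficient cultures. As background for the counts below, 12.9% of all 7798 genes tested rose and 11.9% fell. Both NFATc1-deficient signals lay above both wild-type signals for 34.3% of them and below for 29.7%. Of the 9 tested deoxynucleotide genes, 6 rose and 3 did not pass. All 9 had a change above 0, but the share of all genes tested with such a change was not counted, and their median was 0.03. Of 23 cell cycle genes outside the set, 20 rose and 3 did not pass, with a median change of 0.92 and the NFATc1-deficient signals above the wild-type ones for all 23. Their summed signal was 58819.3 and 53408.8 in NFATc1-deficient cultures, against 32059.4 and 29765.4 in wild-type cultures. Osteoclast markers went the other way, with 7 of 7 lower and sums of 19085.0 and 26174.8, against 43638.4 and 49299.4 in wild-type cultures. Granulocyte markers rose in 4 of 11, with sums of 17048.9 and 8382.4 in NFATc1-deficient cultures, against 6519.5 and 7014.0 in wild-type cultures, so NFATc1-deficient replicate 1 was the highest array. The 5 progenitor and mast cell genes in the test did not pass, with changes of -0.55 to 0.67 and sums of 1257.9 and 1018.5 in NFATc1-deficient cultures, against 955.3 and 668.3 in wild-type cultures. Of 6 macrophage and monocyte genes, Csf1r (-0.41, adjusted p = 0.0451) and Cd68 (-0.68, adjusted p = 0.00870) fell, Cd14 (0.54, adjusted p = 0.0410) rose and 3 did not pass. Their sums were 18159.3 and 18017.7 in NFATc1-deficient cultures, against 22241.0 and 26212.3 in wild-type cultures. Of 2 tested lymphoid genes 1 rose, Il7r, with 242.4 and 275.5 in NFATc1-deficient cultures, against 132.1 and 80.5 in wild-type cultures (change 1.15, adjusted p = 0.0106). The other, Ighm, did not pass (change 0.18, adjusted p = 0.694). Below the filter, Cd3e was lower, with 10.1 and 18.8 in NFATc1-deficient cultures, against 28.0 and 41.0 in wild-type cultures, and Cd79a overlapped. The lymphoid list summed to no more than 597.5 on any array and the erythroid list to no more than 202. Without detection calls, such low signals do not show whether these cells were present. The part of dividing cells, of granulocytes, of lymphoid cells, of macrophages or of remaining precursors in the changes of nucleotide genes was not tested.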

How the data were processed

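Expression was measured on 4 Affymetrix arrays, 2 per genotype. The deposited values were linear signal intensities per probe set. They are MAS5 output of the authors, per the submitters' processing notes, which name no version. Arrays have no read depth, so the number of arrays limits the precision. Replicate arrays came from separate pools of mice.

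Gene symbols came from the platform annotation: 20393 of 22690 had 1 symbol, 691 several and 1606 none. The pseudocount of 23.3 was the 25th percentile of all values. After 64 control probe sets were left out, those with a mean signal above the 40th percentile (61.95) were kept. NFATc1-deficient minus wild-type was tested with limma 3.58.1 in R 4.3.3 (lmFit, eBayes with an intensity trend, two-sided, Benjamini-Hochberg over all 13577 probe sets). Every adjusted p comes from such a fit. The procedure was also run on simulated data with independent noise and far fewer changed probe sets than were called here. That run therefore gives no error rate for these arrays. Figures and motif searches used Python 3.11.15; promoter sequences came from RefSeq windows of GRCm38.p6, found for 32 of the 33 genes.

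All members are named; of the other pathway genes, up to 6 per direction among those called. The members, lists and tests were chosen with earlier results of these data known. Alternatives changed the scaling, the pseudocount, the filter, the probe set that stands for a gene, the variance trend, a block for replicate number, and the arrays used, omitting 1 at a time.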

Additional observations from a re-analysis of the deposited data

How the results depend on the processing

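Across the alternatives the count of nucleotide and one-carbon genes that rose stayed within 1.5 times of 15, from 11 without NFATc1-deficient replicate 1 to 18 with replicate number as a block. The 2 that fell became 1 with arrays scaled to the same median, without a filter, without the variance trend, with the mean of all tested probe sets and when any array was left out (1 to 1); the gene lost each time was Mthfd2. Over all probe sets, 1740 rose and 1552 fell; 1157 rose without a filter and 990 without the variance trend, and leaving out 1 array gave 854 to 1945 that rose and 940 to 1546 that fell. Of the other pathway genes, 3 rose and 5 fell; 3 fell without a filter and 2 with the stricter filter, 1 rose with the mean of all tested probe sets, and leaving out 1 array gave 1 to 4 that rose and 3 to 6 that fell. The stricter filter left 27 of the other pathway genes in the test and removed Ak1, Upp1 and Aldh1l1, so their calls were not retested there. With the mean of all tested probe sets, the calls lost were those of Uck2 (0.25) and Nt5c2 (0.40). Why the other counts moved between these fits was not tested. The replicate numbers were not shown to pair the cultures: deviations from the group means of same-numbered arrays correlated at 0.13 over 13577 probe sets. With the replicate block 18 of the set's genes rose and 2 fell, 2048 and 1799 of all probe sets, and 4 and 6 of the other pathway genes, and Hprt, Ctps and Nme1 passed in addition. Choosing probe sets without the suffixes _x_at and _s_at, a setting added after the data were seen, left 14 that rose and 2 that fell and ended the call for Ampd2 (0.61). No called change in the set reversed its sign in any of these fits. Scaling moved the median change of all probe sets little, from 0.04 as deposited to 0.05 with equal medians and 0.03 with quantile normalization. Signal over background is unknown, so Tyms, Ampd3 and Ada are limited by dimness.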
